A study of Mus musculus with 21 samples.

Results

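Aortic valves of 17 Notch1-haploinsufficient mouse samples (N1het, N1+/-) were compared with 4 wild-type samples (WT, N1+/+) across all genes, and the differences that the 4 N1het groups had in common are described. These 21 RNA-seq libraries are all the libraries of the series. All mice, the wild type included, were Terc-/- of generation 2, so they lacked the RNA component of telomerase. WT valves (n = 4) were healthy and came from solvent-treated mice. The N1het groups were healthy with solvent (N1het healthy, n = 6), healthy with XCT790 (N1het healthy XCT790, n = 5), stenotic with solvent (N1het stenosis, n = 3) and stenotic with XCT790 (N1het stenosis XCT790, n = 3). XCT790, an inverse agonist of the nuclear receptor ERR-alpha (Esrra), or its solvent was given by daily injection into the abdomen (5 mg/kg/day), starting when the mice were 4 weeks old and lasting 4 weeks. Groups follow the titles. In 6 libraries the agent field contradicts the title: N1het healthy XCT790 1 to 3 carry solvent there and N1het stenosis 1 to 3 carry XCT790. There was no stenotic or XCT790-treated WT group, so N1het healthy is the single group that differs from WT by the Notch1 genotype alone. The labels do not say whether the libraries of a group are separate animals, and the p-values measure the spread between these samples, which may be technical.

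Notch1 is a cell-surface receptor. Ligands of the Delta and Jagged families on a neighbouring cell trigger its cleavage, and the freed intracellular part joins the DNA-binding protein RBPJ to switch on targets such as the Hes and Hey repressors. Loss of 1 NOTCH1 copy is a known cause of bicuspid and calcified aortic valves in people, and in mice valve disease of Notch1 heterozygotes becomes more frequent when telomeres are short.

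The libraries held 8.4 to 27.3 M reads (megareads, median 13.7). Of the listed genes, 21.1% to 26.7% stood at 0 in WT and 12.2% to 26.5% in N1het libraries. Depth did not differ detectably between WT and N1het (exact permutation test over 5985 splits, two-sided, p = 0.375), nor did the share of reads from mitochondrially encoded genes (p = 0.15). A total of 6 libraries held 17.7 M reads or more and are called the deep batch here. The name stands for a cut on depth, since the other libraries held at most 15.6 M reads. The labels do not say whether the 6 were prepared or sequenced together. The deep batch holds WT 1 and 5 N1het libraries, and the other 15 libraries hold 3 WT and 12 N1het. The plot of depth shows both.

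**Figure D1:**
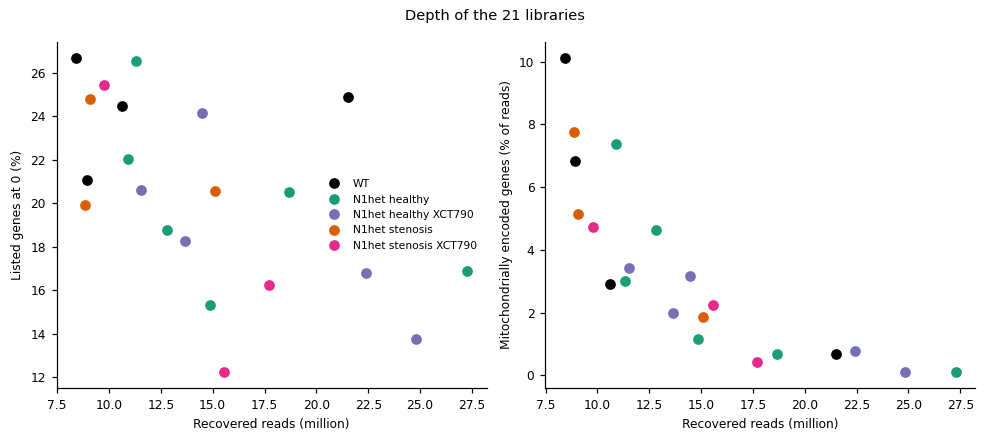
Each point is 1 library, coloured by group, with recovered M reads on the x axis. The left y axis is the percentage of listed genes at 0 and the right is the percentage of reads from mitochondrially encoded genes. The 6 deepest libraries, WT 1 among them, had at most 0.77% mitochondrially encoded reads and the others at least 1.15%.

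Notch1 mRNA was 46.5, 33.6, 26.6 and 28.7 FPKM (sequenced fragments relative to the length of the gene and the depth of the library) in the 4 WT libraries. In the 17 N1het libraries it ran from 19.4 through a median of 29.3 to 50.03 FPKM, so the groups overlapped. The difference of N1het minus WT was -0.13 ± 0.21 (SE) on the log2(FPKM + 1) scale (limma, adjusted p = 0.864). It was 0.03 without WT 1. The labels do not say which part of the gene is altered, so this level does not test the genotype. Esrra, which encodes the receptor XCT790 acts on, was 1.83, 2.33, 3.46 and 2.00 FPKM in WT and 0.364 to 2.89 FPKM (median 1.64) in N1het, a log2 difference of -0.40 ± 0.29 (limma, adjusted p = 0.687). Terc was not analysed here.

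No gene passed the threshold of an adjusted p of 0.05 in the comparison of all N1het with all WT libraries (0 of 14966 genes tested with limma, 0%), so 0 genes met the strict rule of being called and shared by all 4 N1het groups. The smallest adjusted p was 0.0603. At an unadjusted p under 0.05 there were 1410 genes (9.42%), of which 1057 were higher (7.06%) and 353 lower (2.36%) in N1het. On the deposited FPKM scale 75% of them were higher. The share was 68.6% with upper-quartile scaling (955 higher, 437 lower) and 55.4% with median-of-ratios scaling (782 higher, 629 lower). With limma voom on the reads, which changes the input, the weights and the scaling together, it was 49.4% (791 higher, 810 lower). The median difference over all genes was 0.116 on the log2 scale and 0.033 with median-of-ratios scaling. Voom called 4 genes, all lower, and voom with sample quality weights 0. WT 2 and WT 3 decide part of this, since 9 genes were called without WT 2 and 8 different ones without WT 3. Without N1het healthy 1 or 6 there were 2 and 6, and without N1het healthy 4 or N1het stenosis 3 there was 1 each.

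A total of 25 genes are described here, chosen after their values were seen. They had an adjusted p under 0.1 or no overlap between WT and N1het libraries. At an adjusted p under 0.1 there were 16 genes (0.107% of genes tested), 15 higher (0.1%) and 1 lower (0.00668%). All 16 had an unadjusted p under 0.05 with the same sign in each of the 4 N1het groups, a property of 125 genes in all (0.835%), 101 of them higher (0.675%) and 24 lower (0.16%). In 18 genes (0.12%), 12 higher (0.0802%) and 6 lower (0.0401%), the 17 N1het values and the 4 WT values did not overlap at all. The sets have 9 genes in common. Of the 18 genes, 14 had an unadjusted limma p under 0.05 in each of the 4 groups, and Ssfa2, Usp27x, Gnptab and Vezt did not. Others of the 125, such as Gja4 (limma, adjusted p = 0.117), met neither rule and are left out. Since the 25 genes were picked by this contrast, their differences are descriptions and their p-values are no separate support. The plot of all genes shows where they lie.

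**Figure D2:**
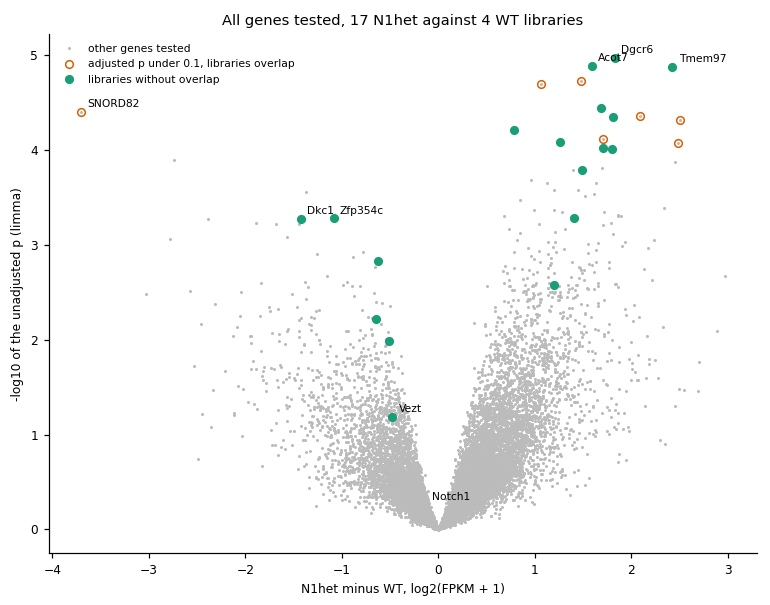
Each point is 1 of the 14966 genes tested, with the difference of N1het minus WT in log2(FPKM + 1) on the x axis and -log10 of the unadjusted limma p on the y axis. Filled points are the 18 genes whose libraries do not overlap and open circles the 7 others with an adjusted p under 0.1. Vezt, at -0.47, does not overlap although its p is 0.0653.

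RefSeq promoters (GRCm38.p6, 250 bases before to 50 after each start) were searched because RBPJ and the Hes repressors act at DNA. Of the 25 genes, 20 had a window. The RBPJ core TGGGAA, on either strand, lay in 4 of their 24 windows (16.7%), against 23.4% of the windows of genes tested. Any Hes site, that is CACGTG or its relatives CACGCG and also CACGAG, on either strand and with overlapping matches counted each, lay in 10 of the 24 (41.7%), against 29.7%. The upstream parts of 3 windows show these cases. Capitals mark the RBPJ core in Smg5 and the Hes sites in Tmem97, and Dkc1 has no RBPJ core in this stretch. A match is a description of letters and not evidence of binding.
Smg5, chr3:88336010-88336259, plus strand: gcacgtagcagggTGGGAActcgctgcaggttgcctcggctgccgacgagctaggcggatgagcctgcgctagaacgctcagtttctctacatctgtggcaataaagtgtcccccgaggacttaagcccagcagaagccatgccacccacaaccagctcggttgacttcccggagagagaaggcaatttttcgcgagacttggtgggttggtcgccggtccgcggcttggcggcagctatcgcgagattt
Tmem97, chr11:78550736-78550985, minus strand: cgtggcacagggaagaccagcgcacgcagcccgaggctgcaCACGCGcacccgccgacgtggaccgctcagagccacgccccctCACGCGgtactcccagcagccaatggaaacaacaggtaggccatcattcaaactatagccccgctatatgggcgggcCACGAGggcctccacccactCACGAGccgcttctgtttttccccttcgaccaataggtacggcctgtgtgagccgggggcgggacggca
Dkc1, chrX:75095604-75095853, plus strand: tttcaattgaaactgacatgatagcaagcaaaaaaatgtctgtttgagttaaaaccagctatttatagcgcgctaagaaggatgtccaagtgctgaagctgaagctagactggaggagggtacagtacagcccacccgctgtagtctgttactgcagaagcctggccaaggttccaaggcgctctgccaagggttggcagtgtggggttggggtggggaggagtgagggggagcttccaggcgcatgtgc

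Among the higher genes, a pair handles cholesterol. Tmem97 encodes the sigma-2 receptor, a membrane protein of cholesterol transport, and Nceh1 a hydrolase that frees cholesterol from its esters. Tmem97 was 0.473, 0, 0.814 and 0 FPKM in WT, resting on 14, 0, 10 and 0 reads. In N1het it ran from 1.01 through a median of 5.13 to 41.1 FPKM. The lowest N1het library, N1het healthy 1, was above the highest WT library, WT 3. The log2 difference was 2.43 ± 0.43 (limma, adjusted p = 0.0603), 2.72 in the 15 shallower libraries and 1.69 in the deep batch, where WT 1 is the only control. Nceh1 was 4.45, 2.56, 3.62 and 1.58 FPKM in WT and 4.07 to 19.8 FPKM (median 10.3) in N1het. Its groups overlapped only through N1het healthy 5. Its difference was 1.48 ± 0.27 (limma, adjusted p = 0.0603), 1.79 in the shallower libraries and 0.64 in the deep batch.

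Acot7 and Gcat are metabolic enzymes. Acot7, a thioesterase of long-chain acyl-CoA, was 4.83, 6.76, 3.88 and 8.29 FPKM in WT and 9.80 to 35.8 FPKM (median 20.4) in N1het. Every N1het library exceeded every WT library, and the log2 difference was 1.59 ± 0.28 (limma, adjusted p = 0.0603). Gcat, which cleaves an intermediate of threonine breakdown into glycine, was 0.162, 0.0656, 0.078 and 0 FPKM in WT, at most 5 reads in a library, and 0.433 to 6.29 FPKM (median 2.04) in N1het. Its difference was 1.41 ± 0.35 (limma, adjusted p = 0.187), and its nearest libraries stood furthest apart of the 18, by a ratio of 2.68. Mrpl10, a protein of the mitochondrial ribosome, was 4.91, 7.44, 12.4 and 0.566 FPKM in WT and 6.62 to 29.3 FPKM (median 16.4) in N1het, where N1het stenosis XCT790 3 fell among the WT values. Its difference of 1.71 ± 0.35 (limma, adjusted p = 0.0897) was 1.09 without WT 4. It was 0.83 with WT 1, WT 4 and N1het healthy 3 left out together.

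Several genes act at membranes or outside the cell. Hpse, heparanase, which cuts heparan sulfate chains in the matrix, was 1.31, 4.82, 4.55 and 0.574 FPKM in WT and 4.96 to 18.9 FPKM (median 11.1) in N1het. The groups just failed to touch, and the difference was 1.81 ± 0.36 (limma, adjusted p = 0.0714). It was 1.01 without WT 1, WT 4 and N1het healthy 3. Ap2a2, a subunit of the clathrin adaptor AP-2, was 21.9, 16.3, 13.2 and 24.8 FPKM in WT and 25.03 to 38.8 FPKM (median 33.5) in N1het. It was the most abundant of the higher genes and differed by 0.78 ± 0.16 (limma, adjusted p = 0.0841). Rhod, a small GTPase of endosomes, was 3.07, 0.61, 3.63 and 2.92 FPKM in WT and 1.84 to 29.4 FPKM (median 13.9) in N1het, with N1het healthy 1 inside the WT range. B4galnt1, which builds gangliosides, was 0.251, 6.04, 0.982 and 1.12 FPKM in WT and 2.60 to 56.1 FPKM (median 16.5) in N1het, and WT 2 overlapped N1het. Ebi3, a subunit of the cytokines IL-27 and IL-35, was 0, 0, 1.24 and 1.19 FPKM in WT and 0.204 to 22.4 FPKM (median 8.86) in N1het, where N1het healthy 4 fell among the WT values.

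Some of the remaining higher genes act on RNA, protein turnover or chromatin. Dgcr6, named for the DiGeorge critical region and given no role here, had the smallest p. It was 0.716, 1.45, 0.638 and 0.0796 FPKM in WT and 1.75 to 15.4 FPKM (median 4.27) in N1het without overlap, a log2 difference of 1.83 ± 0.32 (limma, adjusted p = 0.0603). Its difference was 1.82 in the shallower libraries and 1.87 in the deep batch. Smg5, a factor of nonsense-mediated mRNA decay, was 3.41, 2.96, 3.93 and 4.17 FPKM in WT and 5.22 to 18.4 FPKM (median 10.8) in N1het, also without overlap, and its promoter is the first printed above. Kctd15, a BTB-domain protein known to restrain neural crest formation, was 1.32, 1.14, 0.931 and 0.782 FPKM in WT and 1.63 to 16.2 FPKM (median 5.43) in N1het. Ing5, a subunit of histone acetyltransferase complexes, was 0.0921, 2.05, 2.79 and 2.51 FPKM in WT and 2.79 to 13.4 FPKM in N1het. Its nearest libraries, WT 3 and N1het stenosis XCT790 3, differed by a ratio of 1.002. Zfp869, a zinc finger gene, was 5.21, 4.35, 9.89 and 4.50 FPKM in WT and 8.96 to 16.9 FPKM in N1het, and WT 3 overlapped. Fbxl6 (an F-box gene), Usp27x (a deubiquitinase) and BC067068 (listed under a clone name, Mettl25 in the RefSeq table) also had no overlap, with differences of 1.71, 1.201 and 1.69. The plot of the 25 genes gives each library.

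**Figure D3:**
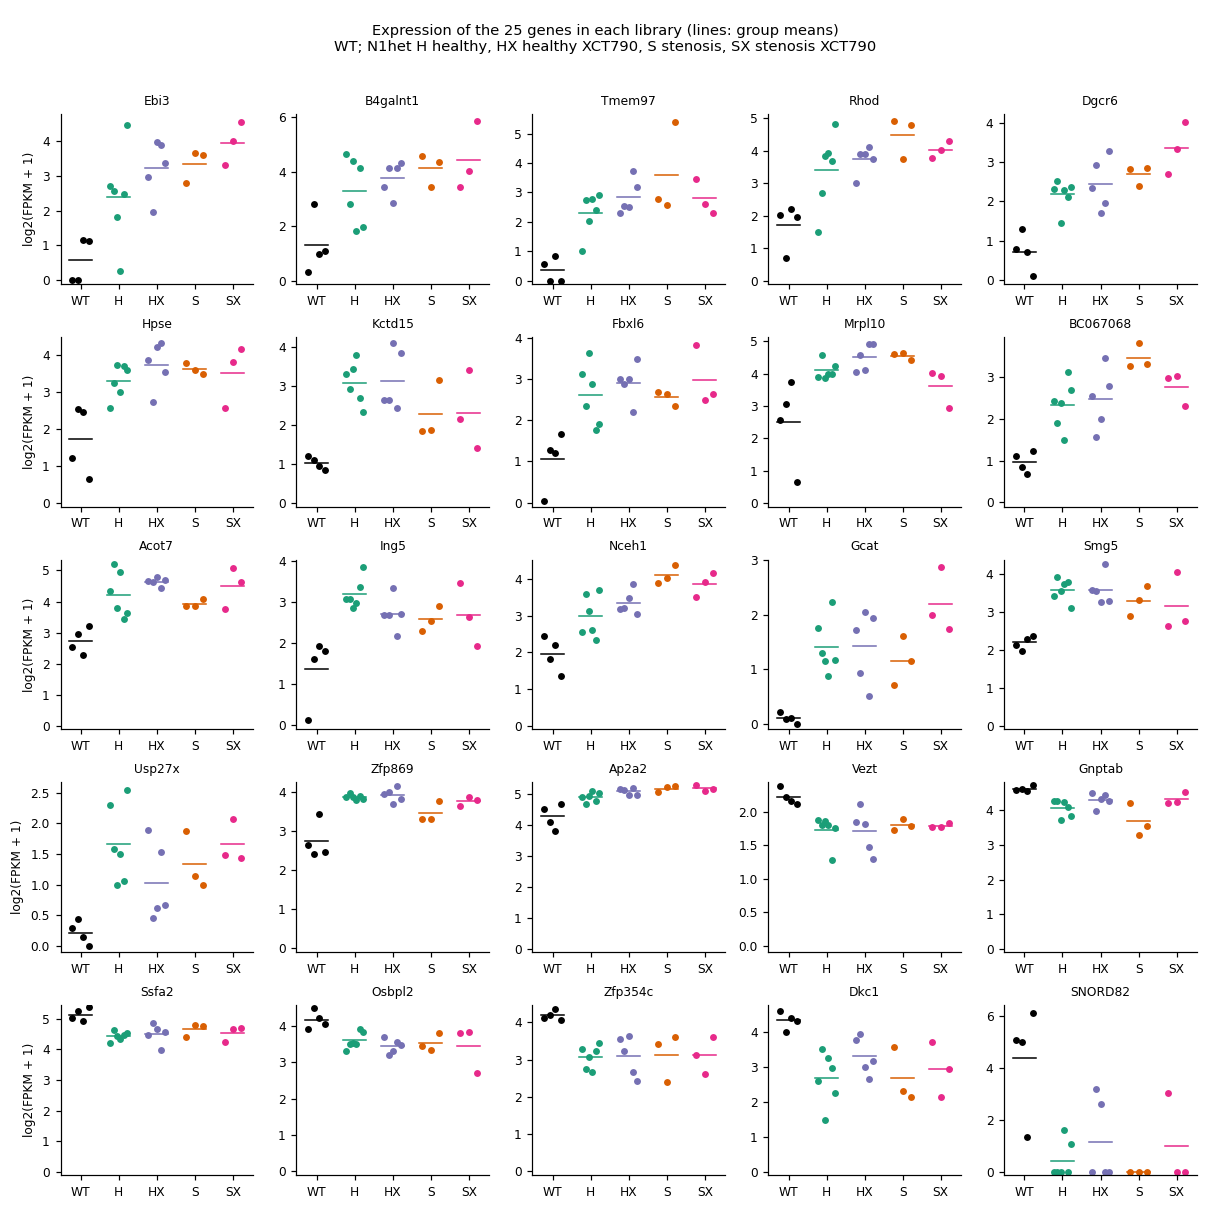
Each panel is 1 of the 25 genes, ordered by its difference, with log2(FPKM + 1) on the y axis. Points are libraries and lines group means for WT and the N1het groups healthy (H), healthy XCT790 (HX), stenosis (S) and stenosis XCT790 (SX). Gcat and Usp27x lie near 0 in every WT library, and Dkc1 and Zfp354c are lower in all 17 N1het libraries.

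The lower genes were fewer. Dkc1 encodes dyskerin, which binds and stabilizes telomerase RNA and guides RNA pseudouridylation, and these mice have no Terc in any group. It was 23.4, 14.9, 20.2 and 18.7 FPKM in WT and 1.78 to 14.2 FPKM (median 6.84) in N1het. All 17 N1het libraries were below all WT libraries, by a log2 difference of -1.42 ± 0.35 (limma, adjusted p = 0.187). The difference was -1.43 in the shallower libraries, -1.48 in the deep batch and -1.37 with healthy N1het libraries alone. Zfp354c, a zinc finger gene, was 16.5, 17.3, 19.6 and 15.7 FPKM in WT and 4.25 to 11.5 FPKM (median 8.34) in N1het, a difference of -1.08 ± 0.27 (limma, adjusted p = 0.187). It was -1.09 in the shallower libraries and -1.06 in the deep batch.

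The other 4 lower genes without overlap had smaller differences. Their gaps were narrow, as was that of Dkc1, whose nearest libraries were WT 2 (14.9 FPKM) and N1het healthy XCT790 2 (14.2 FPKM). Gnptab, which starts the mannose-6-phosphate tag of lysosomal enzymes, was 23.1, 23.7, 22.7 and 25.7 FPKM in WT and 8.81 to 22.04 FPKM in N1het (-0.51 ± 0.18). Osbpl2, an oxysterol-binding protein, was 14.2, 21.4, 17.5 and 15.5 FPKM in WT and 5.52 to 14.1 FPKM in N1het (-0.65 ± 0.21). Ssfa2 was 31.2, 36.7, 29.3 and 40.4 FPKM in WT and 14.7 to 27.8 FPKM in N1het. Vezt, a protein of cell-cell junctions, was 4.21, 3.65, 3.47 and 3.34 FPKM in WT and 1.42 to 3.32 FPKM in N1het. Their adjusted p-values from limma were 0.268 to 0.55. SNORD82, a small nucleolar RNA gene, was 32.5, 30.9, 1.60 and 67.9 FPKM in WT on 49, 23, 1 and 40 reads, and it was listed at 0 in most N1het libraries, with a highest value of 8.29 FPKM.

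A pair of further lower genes had small p-values but overlapping libraries. Grrp1 was 28.9, 14.5, 8.08 and 21.4 FPKM in WT and 0 to 14.1 FPKM (median 1.12) in N1het, a log2 difference of -2.73 ± 0.59 (limma, adjusted p = 0.11). Stc1, the secreted hormone stanniocalcin 1, was 65.6, 56.5, 26.0 and 33.8 FPKM in WT and 1.04 to 38.8 FPKM (median 5.22) in N1het, a difference of -2.38 ± 0.58 (limma, adjusted p = 0.187). Both were among the 4 genes voom called. So was AW146020, listed under a clone name and named here after its values were seen, whose p was smaller than those of Zfp354c, Dkc1 and Stc1. It averaged 4.22 ± 1.47 FPKM (SD, n = 4) in WT and 1.04 ± 0.64 FPKM (SD, n = 17) in N1het, and its groups overlapped (-1.37 ± 0.32, limma adjusted p = 0.154).

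The 4 N1het groups share the WT libraries, so their differences are not independent of each other and are set side by side. Tmem97 differed by 1.96 ± 0.50 in N1het healthy, 2.50 ± 0.52 in N1het healthy XCT790, 3.23 ± 0.59 in N1het stenosis and 2.44 ± 0.59 in N1het stenosis XCT790. Dkc1 differed by -1.66 ± 0.41, -1.02 ± 0.42, -1.65 ± 0.48 and -1.40 ± 0.48 in the same order, and Zfp354c by -1.11 ± 0.31, -1.08 ± 0.32, -1.05 ± 0.36 and -1.07 ± 0.36. The choice of genes with the same sign in every group, or with all N1het values on 1 side of WT, favours genes that are even among the N1het groups, so the next counts are a description. Among the 4 N1het groups themselves, limma's F test compared the means of the 17 N1het libraries, with the spread taken from all 21. It reached an unadjusted p under 0.05 in 1 of the 25 genes, Nceh1, against 6.65% of all genes. After adjustment 0 of the 25 passed, and the smallest adjusted p was 0.575. Nceh1 differed by 1.02 ± 0.32 in N1het healthy and 2.14 ± 0.37 in N1het stenosis.

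**Figure D4:**
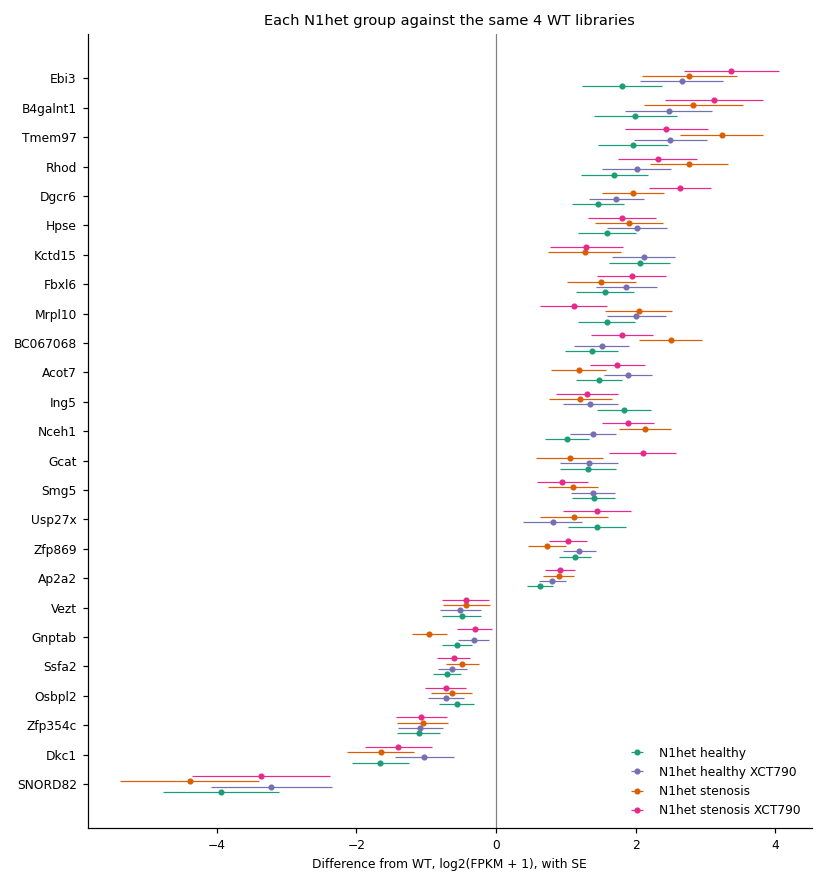
Points are the differences of each N1het group from the same 4 WT libraries in log2(FPKM + 1), with the SE as bars, for the 25 genes. The choice of the genes puts all 4 points on 1 side of 0, and those of Zfp354c run from -1.11 to -1.05.

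Single groups gave few calls. N1het stenosis had 5 genes called against WT (0.0334%), and the other 3 groups 0 each. At an unadjusted p under 0.05 there were 1111 genes (7.42%) in N1het healthy and 1107 (7.4%) in its XCT790 counterpart. N1het stenosis had 1563 (10.4%) and its XCT790 counterpart 1301 (8.69%). The 5 genes called in N1het stenosis were Nceh1, BC067068, Lyz1, Nppb and Coch. Nppb, a natriuretic peptide of heart muscle, was at 0 in each WT library and at 11.2, 38.7 and 30.5 FPKM in N1het stenosis. Coch, a secreted matrix protein, was 25.3, 52.0, 22.5 and 39.0 FPKM in WT and 9.70, 1.98 and 0.807 FPKM in N1het stenosis, but stood at 29.5 to 111 FPKM in N1het healthy. Coch and Shisa2 were the 2 genes (0.0134%) that differed among the N1het groups (F test in limma, adjusted p = 0.00352 and 0.028).

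The authors' deposited table marks 139 genes as changed in healthy N1het against WT and 281 in stenotic N1het against WT, by a test not given in the sources used here. It marks 41 of the 20872 listed genes in both, and 23 of these were among the 14966 tested. Of the 25 genes, the authors' deposited table marks 6 in both comparisons and 5 in neither. The marks rest on the same libraries by which the 25 were picked, so this overlap is no separate support.

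Pathway lists were read by their counts, with 0 called in each. Over all genes tested the median was 0.116, 9081 genes were higher and 5885 lower, and 9.42% had an unadjusted p under 0.05. Of the Notch receptors and ligands, 1 of 8 tested was higher and 7 lower (median -0.21), 0 of them at an unadjusted p under 0.05. The list's median was -0.26 in N1het healthy, 0.05 in N1het healthy XCT790, -0.44 in N1het stenosis and -0.15 in N1het stenosis XCT790, so its sign was not shared. With voom 1 was higher and 7 lower in all N1het, 1 of the lower genes at an unadjusted p under 0.05 (median -0.438). The ligand gene Jag1 was 16, 14.4, 14.5 and 7.60 FPKM in WT and 5.55 to 15.2 FPKM (median 10.2) in N1het. Of 22 genes for Notch processing and nuclear partners, only Lfng, a sugar transferase that modifies Notch, had an unadjusted p under 0.05 (1.23 ± 0.51, limma adjusted p = 0.448). Its difference was 0.59 and 0.67 in the healthy groups without and with XCT790 and 2.32 and 2.35 in the stenotic ones, and it was 1.88 without WT 4. Of 15 Notch targets, 6 were higher and 9 lower with 0 at that p (median -0.12), and with voom 1 was higher and 14 lower, 3 of them at that p (median -0.19). Among 22 telomere maintenance genes 11 were higher and 11 lower (median 0.01, or -0.08 with median-of-ratios scaling), and Dkc1 and the DNA damage kinase gene Atm (-0.65 ± 0.27) were the 2 with an unadjusted p under 0.05, a share near that of all genes.

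Of 49 genes of oxidative phosphorylation, fatty acid oxidation and the TCA cycle, 39 were higher and 10 lower, with 10 at an unadjusted p under 0.05, all higher (median 0.28). With median-of-ratios scaling 35 were higher and 6 against 1 had that p (median 0.18). Acadvl, an enzyme that starts long-chain fatty acid oxidation, was 10.8, 11.5, 10.7 and 11.8 FPKM in WT and 9.24 to 48.3 FPKM (median 22.8) in N1het. Of 34 cholesterol genes 21 were higher, with 7 higher and 1 lower at that p, Tmem97, Nceh1 and Fdps among them. The list's median of 0.12 was near that of all genes, and with voom 17 were higher and 17 lower (median 0.02). Fdps, an enzyme of the mevalonate pathway, was 1.83, 0.646, 3.84 and 8.96 FPKM in WT and 4.04 to 23.2 FPKM in N1het. Of 34 BMP and TGF-beta genes 4 were higher and 1 lower at that p, with a median of 0.04. The counts were 2 and 1 with median-of-ratios scaling, where the median turned to -0.07, 2 and 1 with upper-quartile scaling, and 1 and 1 with voom (median -0.01). In the FPKM test the lower gene was Bmpr2, a BMP receptor, at 130, 137, 132 and 111 FPKM in WT and 64.7 to 116 FPKM (median 91.2) in N1het. Only WT 4 overlapped, and the difference was -0.50 ± 0.16 (limma, adjusted p = 0.3). Of 32 interferon-stimulated genes 3 were higher at that p, led by Irf9 (1.21 ± 0.36, limma adjusted p = 0.277), but the list's median was -0.21 in N1het healthy and 0.66 in N1het stenosis.

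Markers of other cells and of RNA quality had 0 genes called, and their levels are given because their part in the 25 genes was not tested. The valve interstitial markers averaged 6.21 to 6.65 in WT and 5.87 to 6.85 in N1het libraries on the log2(FPKM + 1) scale. Macrophage markers averaged 4.33 to 4.97 in WT and 3.94 to 6.41 in N1het, and 6 of 25 had an unadjusted p under 0.05, all higher, against 9.42% of all genes in either direction, and 0 did with voom. Their median difference was -0.14 in N1het healthy, 0.44 in N1het healthy XCT790, 1.17 in N1het stenosis and 0.85 in N1het stenosis XCT790. Lyz1, a lysozyme, led them at 3.93, 1.69, 0.526 and 15.5 FPKM in WT and 3.42 to 222 FPKM in N1het. Heart muscle markers averaged 1.11 to 5.54 in WT and 1.19 to 6.80 in N1het (median difference 1.04). Melanocyte markers averaged 1.16 to 3.95 in WT and 2.45 to 4.94 in N1het (median difference 1.05, 10 of 12 higher). Of 29 mitochondrially encoded genes in the deposited data, the list used here covered 6. These 6 were all lower (median -1.07), although that median was 0.36 in N1het stenosis. With the levels of heart muscle and smooth muscle markers added to the model, 0 genes were called and the smallest adjusted p was 0.187. In bulk tissue, fewer cells of a type and less RNA per cell cannot be told apart.

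**Figure D5:**
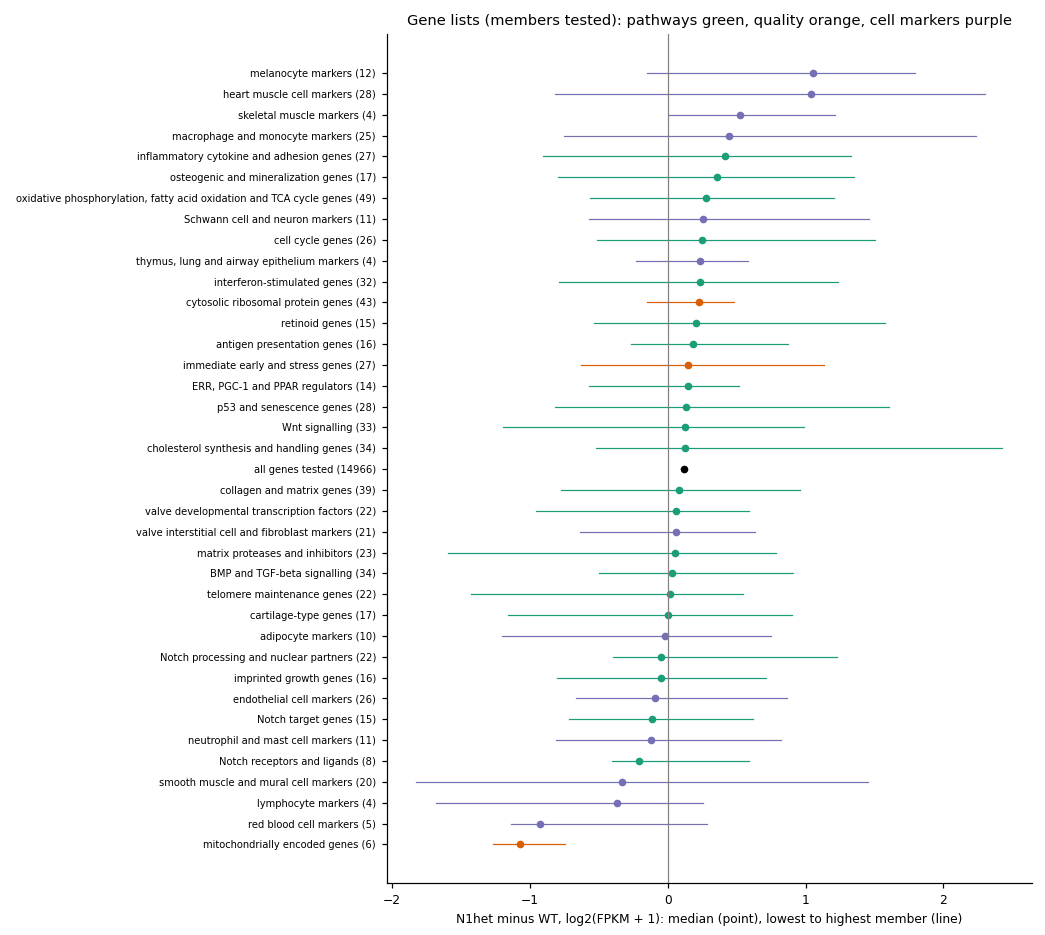
Points are the median difference of N1het minus WT in log2(FPKM + 1) for each list, with the number of members tested, and lines run from the lowest to the highest member. The median over all 14966 genes (black) is 0.116, Notch receptors and ligands lie at -0.21 and melanocyte markers at 1.05.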

How the data were processed

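RNA-seq was made from total RNA of aortic valves in 21 mouse samples. Per the labels' protocols, RNA came from the Qiagen RNeasy Micro kit and libraries from NuGEN Ovation V2. FastQC, HISAT2, SAMtools, Picard and the build mm9 are listed in the submitters' processing notes. The sources used here do not give the counting program or the use of strand. Overlapping or near-identical genes may therefore share reads. The authors deposited FPKM for 20872 genes in each library, per the file headers, and 0 or 1 marks of their own tests. Whole reads were recovered from the FPKM steps for every gene (100% within 0.01 reads), which gave the depths.

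Expression was tested on log2(FPKM + 1) for the 14966 genes whose mean FPKM reached 1 (5906 left out) with limma 3.58.1 (trend and robust, R 4.3.3) on 5 group means. The contrast was the library-weighted mean of the N1het groups minus WT, with Benjamini-Hochberg adjustment at 0.05. A shared gene had to be called and have an unadjusted p under 0.05 with the same sign in each group. A difference on this scale understates the fold of low genes. The test was checked on simulated data. Because the table holds FPKM, count models were not used, and limma voom on the recovered reads, scaled by TMM factors computed in R, was an alternative. Other alternatives were pseudocounts, filters, scalings, the deep batch, the replicate block, marker covariates, the agent label and leaving out libraries.

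Genes were named by fixed rules: Notch1, Terc and Esrra, the 5 smallest p-values in each direction where fewer were called, and up to 3 per list, with clone and model names passed over unless stated. The 25 genes were added after their values were seen. The members and lists were chosen with earlier results of these data known. Promoters came from RefSeq tables of another build (GRCm38.p6), matched by the listed or current symbol.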

Additional observations from a re-analysis of the deposited data

Results flagged for a closer look

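Values of the named genes and the read totals were checked in 177 groups of 4 to 6 libraries for a library standing far from the rest of its own group. In 22 of them the gap to the nearest library took up most of the group's range. Chance flags about 1 in 20 where values are normally distributed. FPKM values need not be, so that rate does not show whether 22 is an excess. Among WT libraries the flagged values were Zfp869 in WT 3 (9.89 FPKM), B4galnt1 in WT 2 (6.04 FPKM), Lfng in WT 4 (7.44 FPKM), Jag2 in WT 2 (0.372 FPKM), Cdc20 in WT 3 (0.37 FPKM) and Cilp in WT 1 (75.9 FPKM). The read total of WT 1, 21.5 M reads, also stood apart.

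In N1het healthy, replicate 6 stood apart for Grrp1 (14.1 FPKM), Ebi3 (20.8 FPKM), Jag2 (1.35 FPKM) and Fdps (23.2 FPKM). Replicate 5 did so for Vezt (1.42 FPKM), Bst2 (91.8 FPKM) and Lyz1 (29.3 FPKM), and replicate 4 for Irf9 (19.2 FPKM) and Tgfbi (225 FPKM). Snai1 in replicate 1 was 36.0 FPKM, and a U6 small nuclear RNA gene in replicate 2 was 1.26 FPKM. In N1het healthy XCT790 the values were Stc1 in replicate 3 (21.7 FPKM), Smg5 (18.4 FPKM) and Mmp11 (9.92 FPKM) in replicate 4, and Irf9 in replicate 5 (19 FPKM).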

How the results depend on the processing

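For all N1het against WT, 0 genes were called and 0 shared. The counts called and shared were 11 and 11 with a pseudocount of 0.1, 2 and 2 with 0.5, 3 and 3 with equal group weights, 16 and 16 at an adjusted p under 0.1, 10 and 9 with groups by the agent label, 4 and 3 with voom, and 2 and 2 in the 15 shallower libraries. In the deep batch alone, whose lone WT library is assumed to vary like the others, 84 were called. Without a call, 125 were shared. Leaving out 1 library gave 0 to 9 called, 0 to 9 shared and 19 to 87 without overlap (18 with all), since fewer libraries overlap less. Without overlap there were 112 in the shallower libraries and 297 without WT 1, WT 4 and N1het healthy 3. N1het stenosis had 5 called against WT. The count was 9 with median-of-ratios scaling, 11 at an adjusted p under 0.1, 2 with voom and 2 with quality weights. It was 1 without those 3 libraries. It was 0 with the deep batch or muscle markers as covariates or in the shallower libraries. N1het stenosis XCT790 had 0 called: 3 without a filter, 2 with FPKM of 1 in 4 libraries, 1 at an adjusted p under 0.1, 7 with the deep batch as covariate and 1 without trend. Differences among N1het groups numbered 2: 6 without a filter, 9 at an adjusted p under 0.1, 4 with the deep batch, 0 in the shallower libraries, 7 with muscle markers, 4 without the 3 libraries, 1 with voom and 26 with quality weights. Leaving out 1 library gave 0 to 18 among N1het groups and 0 to 4, 0 to 3, 0 to 8 and 0 to 3 for N1het healthy without and with XCT790 and N1het stenosis without and with XCT790, in this order. The causes were not tested.

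Same-numbered libraries did not deviate together (34 pairs, mean r 0.01, 3 over 0.1). For other numbers the mean r was -0.003 (139 pairs, 11 over 0.1). The numbers were therefore not used as pairs, although these correlations cannot exclude pairing. With the replicate block 0 genes were called, 0 shared and 3 in N1het stenosis. Direction reversed for Snai1 in the shallower libraries (-0.058) and in the deep batch for Dll1 (-0.49), Dct (-0.30) and Mmp11 (0.16). It also reversed for Notch1 with 1 library left out (-0.231 to 0.03, highest without WT 1). With healthy N1het libraries alone the Notch1 difference rounded to 0, which gives no direction. No other direction of the 56 genes checked reversed. Depth limits low genes such as Gcat and Tmem97, which have at most 14 reads in a WT library, and amplified reads that carry no molecular identifier are not separate molecules.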

Other observations

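Trem1, a receptor of myeloid cells, was the 1 listed gene at 0 in all 4 WT libraries and above 0 in all 17 N1het libraries. Its N1het values ran from 0.0219 through a median of 0.319 to 5.47 FPKM, on 1 to 293 reads, and it was not tested because its mean FPKM was under 1. In the opposite direction there were 0 genes. In all, 2130 listed genes were at 0 in all 4 WT libraries.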
